A study of Homo sapiens with 8 samples.

Results

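The transcripts described here belong to 42 genes that respond to interferon or carry out antigen presentation on major histocompatibility complex (MHC) class I. They were chosen by name, from a list of interferon-stimulated genes, their transcription factors and class I presentation genes. Earlier results of these data were known when they were chosen. All 42 were found among the 58302 genes of each count file. The cells were RD, an established rhabdomyosarcoma line, that is, a tumour line of the skeletal muscle lineage, grown in high-glucose DMEM with fetal bovine serum. The 4 control libraries came from RD cells that carried a scrambled short hairpin RNA (shRNA), and the 4 others, called shPROX1 here, came from RD cells with an shRNA against PROX1, a homeobox transcription factor. The series describes the 4 libraries of each group as biological replicates. Both groups carried a hairpin and no library without one was analysed here, so a response to the hairpin itself cannot be told apart from the baseline level of these genes. The hairpins differed between the groups, so an effect of the hairpin's own sequence cannot be told apart from that of the PROX1 knockdown. This holds for every change given below. All libraries came from 1 cell line, and the labels name no interferon treatment, virus or batch.

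Type I interferons bind a receptor whose kinases JAK1 and TYK2 phosphorylate STAT proteins. STAT2 acts with IRF9 in a complex that binds the interferon-stimulated response element, ISRE, in the promoters of many genes, while interferon gamma acts through the GAS element. The products sense viral RNA, block translation, degrade RNA, restrict membranes or conjugate ISG15 to proteins. Another branch raises MHC class I: peptides cut by the proteasome are carried into the endoplasmic reticulum by TAP1 and TAP2 and loaded on HLA heavy chains held by B2M, and NLRC5 is a transactivator of that branch.

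Promoters are printed first for 7 genes, 4 that rose in the shPROX1 libraries and 3 that fell. They were picked from called genes with a match to the ISRE letters, which stood in promoters of genes that moved in opposite directions. The ISG15 call was lost in 8 of 16 other settings, as given below. Each window runs 5′ to 3′ in the gene's direction, from 250 bases before the annotated start to 50 after it, from the RefSeq promoter table on GRCh38.p14. Capitals mark every match to an ISRE core, searched as a pair of GAAA repeats with 2 bases of any kind between them, or the same letters on the other strand (TTTC repeats), with overlapping matches counted separately. The RefSeq start can lie inside the span that the count files give for a gene, as it does for ISG15.
The IFIT1 and IFIT3 windows (chr10:89392373-89392672, plus strand, and chr10:89327747-89328046, plus strand) belong to genes that rose.
IFIT1: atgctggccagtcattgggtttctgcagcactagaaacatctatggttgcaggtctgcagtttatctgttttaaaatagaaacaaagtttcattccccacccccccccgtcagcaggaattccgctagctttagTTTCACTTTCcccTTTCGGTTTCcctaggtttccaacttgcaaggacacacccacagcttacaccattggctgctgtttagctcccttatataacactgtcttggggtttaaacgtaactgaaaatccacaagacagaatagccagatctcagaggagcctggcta
IFIT3: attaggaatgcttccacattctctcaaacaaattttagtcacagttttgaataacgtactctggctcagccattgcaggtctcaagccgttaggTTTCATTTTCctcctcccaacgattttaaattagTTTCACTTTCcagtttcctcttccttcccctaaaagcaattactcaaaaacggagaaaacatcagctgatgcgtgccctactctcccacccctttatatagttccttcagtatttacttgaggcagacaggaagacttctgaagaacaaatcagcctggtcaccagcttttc
The B2M and TAP2 windows (chr15:44711267-44711566, plus strand, and chr6:32838690-32838989, minus strand) belong to presentation genes that rose.
B2M: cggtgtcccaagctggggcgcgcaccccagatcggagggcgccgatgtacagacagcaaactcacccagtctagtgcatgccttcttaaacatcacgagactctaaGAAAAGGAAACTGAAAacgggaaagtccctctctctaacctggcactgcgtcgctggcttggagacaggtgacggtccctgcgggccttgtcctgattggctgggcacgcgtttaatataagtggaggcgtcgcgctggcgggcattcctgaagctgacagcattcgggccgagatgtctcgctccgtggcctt
TAP2: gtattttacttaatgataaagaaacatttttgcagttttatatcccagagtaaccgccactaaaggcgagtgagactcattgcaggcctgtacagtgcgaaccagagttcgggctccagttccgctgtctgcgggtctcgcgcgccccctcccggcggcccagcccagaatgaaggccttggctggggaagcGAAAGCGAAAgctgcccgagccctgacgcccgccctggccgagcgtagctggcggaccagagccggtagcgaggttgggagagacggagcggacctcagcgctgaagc
The HERC5, DDX60 and ISG15 windows (chr4:88456869-88457168, plus strand, then chr4:168318703-168319002, minus strand, then chr1:1013247-1013546, plus strand) belong to genes that fell.
HERC5: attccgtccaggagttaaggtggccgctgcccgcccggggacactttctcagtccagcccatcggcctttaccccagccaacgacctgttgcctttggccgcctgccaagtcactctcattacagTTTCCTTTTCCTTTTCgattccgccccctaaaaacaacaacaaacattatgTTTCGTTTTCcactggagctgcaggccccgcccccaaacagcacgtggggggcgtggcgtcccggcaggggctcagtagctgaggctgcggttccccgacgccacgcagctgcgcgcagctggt
DDX60: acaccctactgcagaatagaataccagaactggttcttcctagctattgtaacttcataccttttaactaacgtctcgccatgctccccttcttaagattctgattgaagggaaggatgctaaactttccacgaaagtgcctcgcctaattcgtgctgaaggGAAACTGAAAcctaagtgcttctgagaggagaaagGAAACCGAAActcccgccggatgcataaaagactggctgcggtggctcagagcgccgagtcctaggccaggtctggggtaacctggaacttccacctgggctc
ISG15: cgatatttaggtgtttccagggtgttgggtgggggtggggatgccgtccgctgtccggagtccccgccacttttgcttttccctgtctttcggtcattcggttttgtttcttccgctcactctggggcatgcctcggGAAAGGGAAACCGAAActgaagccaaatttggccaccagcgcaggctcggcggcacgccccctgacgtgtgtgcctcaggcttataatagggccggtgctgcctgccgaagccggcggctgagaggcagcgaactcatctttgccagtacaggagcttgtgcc

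The table held windows for 33 of the 42 genes; IRF7, NLRC5, IFIT2, OAS2, OASL, USP18, IFITM2, MX2 and HLA-E had none. An ISRE core was found in 22 of 33 windows (66.7%), against 996 of 27305 windows of the whole table (3.65%). Split by what the genes did in the shPROX1 libraries, it was found in 5 of 7 windows of genes that rose, 7 of 9 of genes that fell, 9 of 14 of genes that did not pass the test and 1 of 3 of genes too low to test. The called genes with a window but no match were DDX58 and IRF1, which rose, and STAT2 and OAS1, which fell. The search allowed only 2 bases between the repeats. The DDX58 and OAS1 windows hold GAAACGAAA, with 1 base between the repeats, which was not counted as a match. The GAS letters, TTCNNNGAA, which read the same on both strands, were in 8 of 33 windows (24.2%) against 7.88% of the whole table, with 1 of 7 among genes that rose, 4 of 9 among genes that fell, 1 of 14 among those that did not pass and 2 of 3 among those too low to test. A match describes letters in the window and is not a measured binding site, and these genes were listed for their known interferon response.

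The libraries held 3747090 to 4865161 counts, and 3 counts, the limit that a count of 0 allows, came to 0.609 to 0.806 CPM, the counts of a gene scaled to library size with edgeR's TMM factors. PROX1 itself stood at 20.1, 16.3, 16.6 and 21.3 CPM in the controls, against 7.8, 10.4, 9.14 and 8.26 CPM in the shPROX1 libraries, a fall of 2.1-fold (log2 change -1.07 ± 0.15 SE, edgeR adjusted p = 4.89e-06). That is a fall of 52.1% in the mean CPM, smaller than the 75% stated in the series' design text, which does not say how it was measured. Principal components were taken from the 500 genes that varied most over the 8 libraries, a choice that favours genes differing between the groups. The first component held 67.7% of the variance of those genes and separated the groups. Control replicate 1 lay apart from the other 7 libraries on the second. Of 10 skeletal muscle lineage markers 9 were tested, 6 fell and 1 rose. Of all tested genes, 17.9% were called lower and 17.3% higher. The summed level of the 10 muscle markers was 2084 to 2142 CPM in the controls and 1762 to 1868 CPM in the shPROX1 libraries. The 10 leukocyte markers had 65 counts over all 8 libraries, 4 of them were at 0 throughout, PTPRC had 2 counts in 1 control library, and their summed level was 1.22 to 2.6 CPM in the controls and 1.42 to 2.73 CPM in the shPROX1 libraries. The 8 endothelial markers, mostly TEK, summed to 39.3 to 53.7 and 41.8 to 46.7 CPM, and the 8 epithelial markers, of which CLDN4 was tested and rose, to 2.47 to 5.79 and 6.86 to 8.94 CPM. The part of the muscle and epithelial markers' changes in the results below was not tested, and in bulk RNA fewer cells of a kind and less RNA per cell cannot be told apart.

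In the control RD cells these genes spanned a wide range of levels, compared between genes per kilobase of exon, with the exon bases of all annotated transcripts of a gene counted together. On that scale ISG15, a ubiquitin-like protein, ranked first at 179.7 ± 30.1 CPM per kb (SD, n = 4), followed by IFIT3 at 118 ± 1.92, B2M, the class I light chain, at 118 ± 4.21 and IFI44 at 112 ± 5.99. IFIT1, IFIT2 and HERC5 followed at 75.3 ± 2.93, 74 ± 2.09 and 70.1 ± 3.5 CPM per kb. Lowest of the tested genes were NLRC5 at 0.636 ± 0.153, MX1 at 0.402 ± 0.113 and MX2 at 0.276 ± 0.0679 CPM per kb. The order rests on that length, which was 941 bases for ISG15 and 6079 for B2M. Where it exceeds the length of the transcripts expressed, a gene is placed too low, and the expressed lengths were not measured. In CPM, not scaled by length, the control means were 718 ± 25.6 CPM for B2M, 347 ± 13.5 CPM for IFIT1, 334 ± 16.7 CPM for HERC5 and 169 ± 28.3 CPM for ISG15. In the order per kb, 32 of the 41 pairs of neighbours had overlapping control ranges, so most neighbouring ranks did not differ beyond the spread of the libraries. On the scale per kb the range of IFIT3 overlapped that of B2M, while ISG15 lay above both in every control library. In CPM not scaled by length, B2M lay above ISG15 in every control library.

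**Figure D1:**
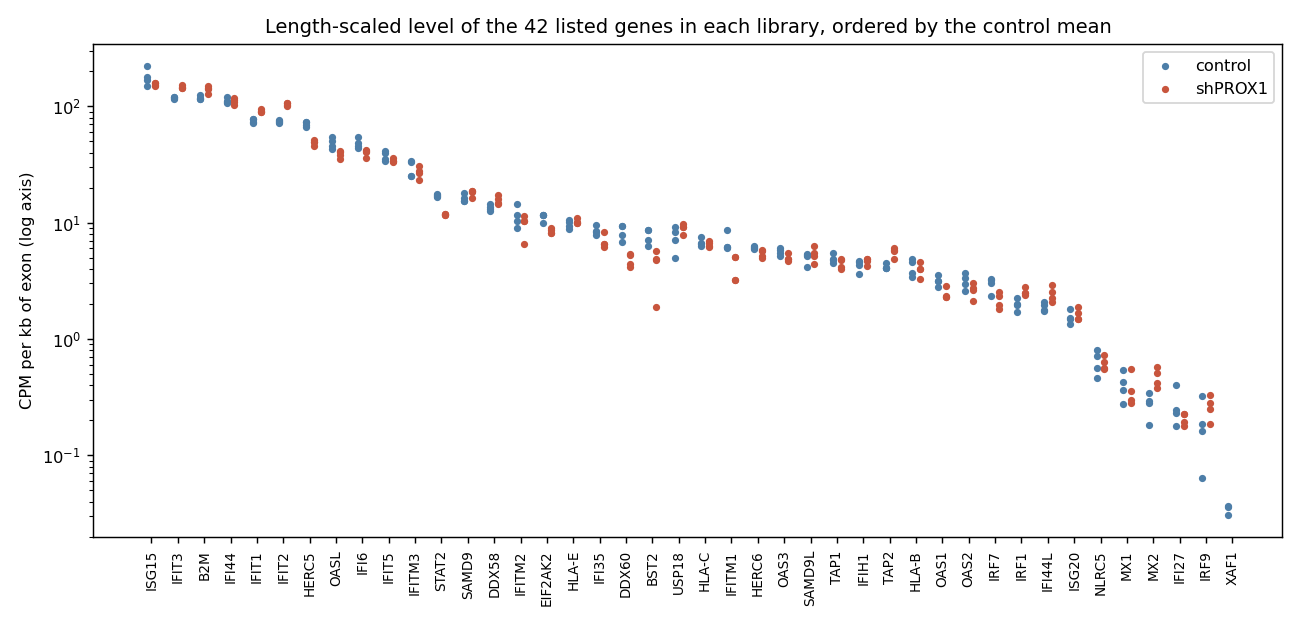
CPM per kb of exon, on a log axis, for the 42 listed genes in the 4 control and 4 shPROX1 libraries (1 point per library), ordered by the control mean. The points of most neighbouring genes overlap, and libraries at 0 have no point, which leaves XAF1 with points in 3 control libraries.

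Interferon transcripts were at or near 0 counts. Of 10 interferon genes of types I, II and III, 9 had a count of 0 in all 8 libraries, and IFNL1, named after its values were seen, had 4 counts in total. These zeros limit each gene to the level of 3 counts per library given above, and do not show that the transcripts were absent. Of the 42 listed genes, 3 were too low to be tested, all under 1 CPM on average. IRF9, the DNA-binding partner of STAT2, had 3, 5, 1 and 3 counts in the controls, against 3, 5, 4 and 4 in the shPROX1 libraries. IFI27 had 7, 3, 4 and 5 counts against 4, 3, 3 and 4, and XAF1, a pro-apoptotic antagonist of XIAP, had 1, 0, 1 and 1 against 0, 0, 0 and 0. IRF9 shares 48.4% of its exon bases with the annotated gene AL136295.5 on the same strand, so the assignment of its reads is uncertain.

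Against the controls, the shPROX1 libraries showed changes in both directions. Of the 39 genes tested, 9 rose and 10 fell at an adjusted p threshold of 0.05 over all 12392 tested genes, and 20 did not pass. That is 48.7% called, beside 35.2% of all tested genes, with 17.3% of all tested genes higher and 17.9% lower. As the genes were chosen with earlier results of these data known, the difference between these shares is not a test of the list. The genes that rose were DDX58, IRF1, IFIT1, IFIT2, IFIT3, MX2, IFI44L, TAP2 and B2M. The genes that fell were DDX60, EIF2AK2, STAT2, OAS1, OASL, ISG15, HERC5, IFITM1, BST2 and IFI6. The median log2 change of the 39 was -0.11, against -0.0066 over all tested genes, and the median size of the change without its sign was 0.26 against 0.18.

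Changes were small. Of the 19 genes called, 15 changed by less than 1.5-fold and 4 by more: DDX60, IFITM1, BST2 and MX2. Over all tested genes 9.51% were called and changed at least 1.5-fold. When the test asked instead for a change beyond 1.5-fold (edgeR glmTreat), 2.98% of all tested genes passed and none of the 39 did, with 1 of them under an unadjusted p of 0.05. The 4 control and 4 shPROX1 values did not overlap for 18 of the 39 genes, 9 higher and 9 lower, beside 32.4% of all tested genes, 16.2% higher and 16.1% lower.

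**Figure D2:**
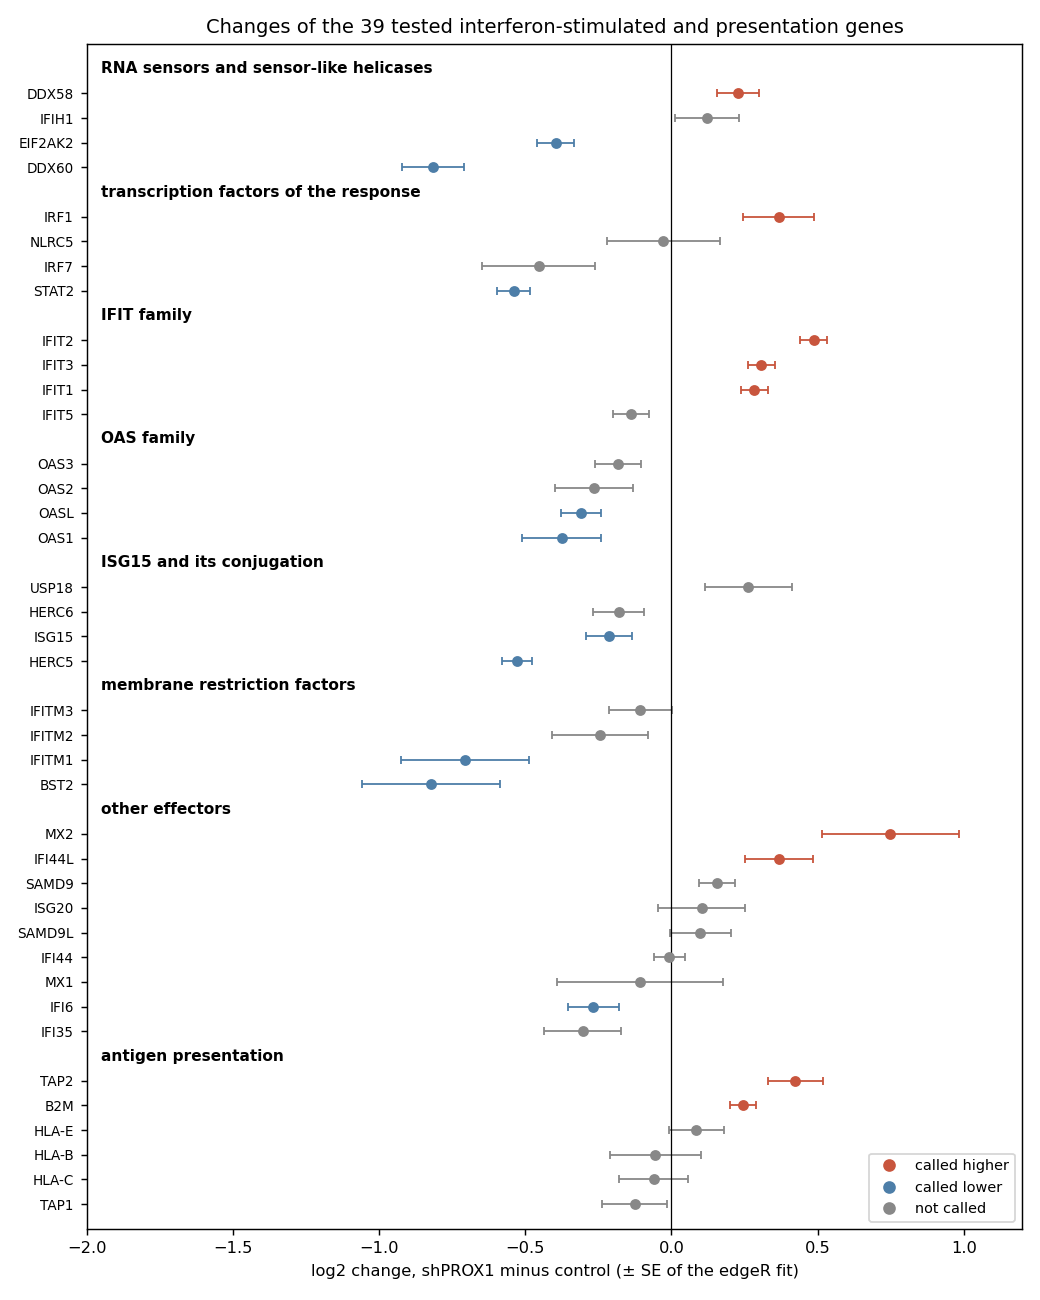
Log2 change, shPROX1 minus control, with the standard error of the edgeR fit, for the 39 tested genes grouped by role. The IFIT family has 3 genes called higher and IFIT5 left of 0, while the called genes of the OAS, ISG15 conjugation and membrane groups all lie left of 0.

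Among the 4 RNA sensors and sensor-like helicases, 1 rose and 2 fell. DDX58, which encodes the RNA sensor RIG-I (chr9:32455705-32526324 on GRCh38, minus strand), stood at 58.9, 56.8, 54.5 and 62.5 CPM in the controls, against 64.6, 75.5, 69.9 and 63.3 CPM in the shPROX1 libraries. The groups did not overlap, but the highest control and the lowest shPROX1 libraries were close. It rose 1.17-fold, a log2 change of 0.23 ± 0.07 (SE, edgeR adjusted p = 0.0169). DDX60, a helicase linked to RIG-I signalling (chr4:168216293-168318807, minus strand), went the other way. Its values were 52.5, 63.5, 45.8 and 63.7 CPM in the controls, against 29.6, 36, 35.5 and 27.9 CPM in the shPROX1 libraries. All shPROX1 libraries lay below all controls, and the fall was 1.76-fold (log2 change -0.82 ± 0.11 SE, edgeR adjusted p = 2.18e-06). EIF2AK2, the double-stranded RNA-dependent kinase PKR that halts translation, had 106, 126, 124 and 124 CPM in the controls, against 97.2, 87.9, 93 and 87.8 CPM in the shPROX1 libraries. Control replicate 1 was the lowest control and still above every shPROX1 library, and the fall was 1.32-fold (log2 change -0.40 ± 0.06 SE, edgeR adjusted p = 2.91e-05). IFIH1, which encodes the sensor MDA5 of long double-stranded RNA, stood at 18.4, 23.7, 21.9 and 23.5 CPM in the controls, against 24.1, 21.6, 24.7 and 25 CPM in the shPROX1 libraries. The groups overlapped, and its log2 change of 0.12 ± 0.11 (SE, edgeR adjusted p = 0.422) did not pass. The DDX58 call was lost without control replicate 3 (adjusted p = 0.0593) or without shPROX1 replicate 2 (adjusted p = 0.0793), over a range of 0.0103 to 0.0793 across 16 alternatives. Counted within each library, the ratio of DDX58 to DDX60 counts, a pair chosen after the values were seen, was 1.05 ± 0.133 in the controls and 2.13 ± 0.129 in the shPROX1 libraries (SD, n = 4 each).

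Of the transcription factors of the response, STAT2 fell and IRF1 rose. STAT2, a factor of the type I response (chr12:56341597-56360155, minus strand), stood at 107, 101, 103 and 105 CPM in the controls, against 72.1, 71.8, 70.9 and 71.8 CPM in the shPROX1 libraries. The 4 shPROX1 libraries were close together and well below the controls. The fall was 1.45-fold, a log2 change of -0.54 ± 0.06 (SE, edgeR adjusted p = 7.70e-08). IRF1, an interferon gamma-induced activator of class I genes, had 15.6, 17.5, 15.2 and 13.4 CPM in the controls, against 21.8, 18.6, 19.3 and 19.4 CPM in the shPROX1 libraries, with no overlap between groups. It rose 1.29-fold, a log2 change of 0.37 ± 0.12 (SE, edgeR adjusted p = 0.0219). IRF7, the factor that amplifies interferon alpha production, stood at 6.15, 8.64, 8.44 and 7.92 CPM in the controls, against 6.62, 4.72, 5.11 and 6.14 CPM in the shPROX1 libraries. Its lowest control lay within the shPROX1 range, and its log2 change of -0.45 ± 0.19 (SE, edgeR adjusted p = 0.0723) did not pass. NLRC5, the class I transactivator, had 9.93, 8.89, 6.99 and 5.68 CPM in the controls, against 7.8, 8.94, 6.99 and 6.85 CPM in the shPROX1 libraries. The groups overlapped fully and the log2 change was -0.0276 ± 0.19 (SE, edgeR adjusted p = 0.929). The IRF1 call was lost in DESeq2 (adjusted p = 0.0740), without control replicate 4 (adjusted p = 0.0824) and without shPROX1 replicate 1 (adjusted p = 0.0779), over a range of 0.0146 to 0.0824, and IRF1 shares 22% of its exon bases with C5orf56 on the opposite strand. IRF7 passed without control replicate 1 (adjusted p = 0.0354, range 0.0354 to 0.199).

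The IFIT genes, which encode tetratricopeptide proteins that bind foreign RNA and limit its translation, rose for 3 of 4. IFIT1, IFIT2, IFIT3 and IFIT5 lie on the plus strand of chromosome 10, from 89283694 (IFIT2) to 89421001 (IFIT5). IFIT2 had 302, 293, 305 and 314 CPM in the controls, against 438, 434, 417 and 412 CPM in the shPROX1 libraries. Every shPROX1 library lay above every control. IFIT2 rose 1.4-fold, from 303 ± 8.56 CPM to 425 ± 12.3 CPM (SD, n = 4 each), a log2 change of 0.49 ± 0.05 (SE, edgeR adjusted p = 1.43e-08). IFIT3 stood at 316, 313, 305 and 316 CPM in the controls, against 399.8, 389.7, 381 and 378 CPM in the shPROX1 libraries, again without overlap. It rose 1.24-fold, a log2 change of 0.31 ± 0.04 (SE, edgeR adjusted p = 9.99e-06). IFIT1, which recognises RNA caps that lack a methyl group, had 357, 340.5, 331 and 359.5 CPM in the controls, against 414, 441, 420.0 and 415 CPM in the shPROX1 libraries. The groups did not overlap and the rise was 1.22-fold (log2 change 0.28 ± 0.05 SE, edgeR adjusted p = 4.38e-05). IFIT5 stood at 143, 159, 135 and 166 CPM in the controls, against 143, 133, 136 and 136 CPM in the shPROX1 libraries. Of the shPROX1 values 3 lay within the control range and 1 just below it, and the log2 change of -0.14 ± 0.06 (SE, edgeR adjusted p = 0.0847) did not pass. IFIT5 passed as lower without control replicate 1 (adjusted p = 0.0382) or control replicate 3 (adjusted p = 0.0244), over a range of 0.0244 to 0.332. The calls of IFIT1, IFIT2 and IFIT3 held in all 16 alternatives. Within each library, the ratio of IFIT2 to IFIT5 counts, chosen after the values were seen, was 2.03 ± 0.197 in the controls and 3.11 ± 0.104 in the shPROX1 libraries (SD, n = 4 each).

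**Figure D3:**
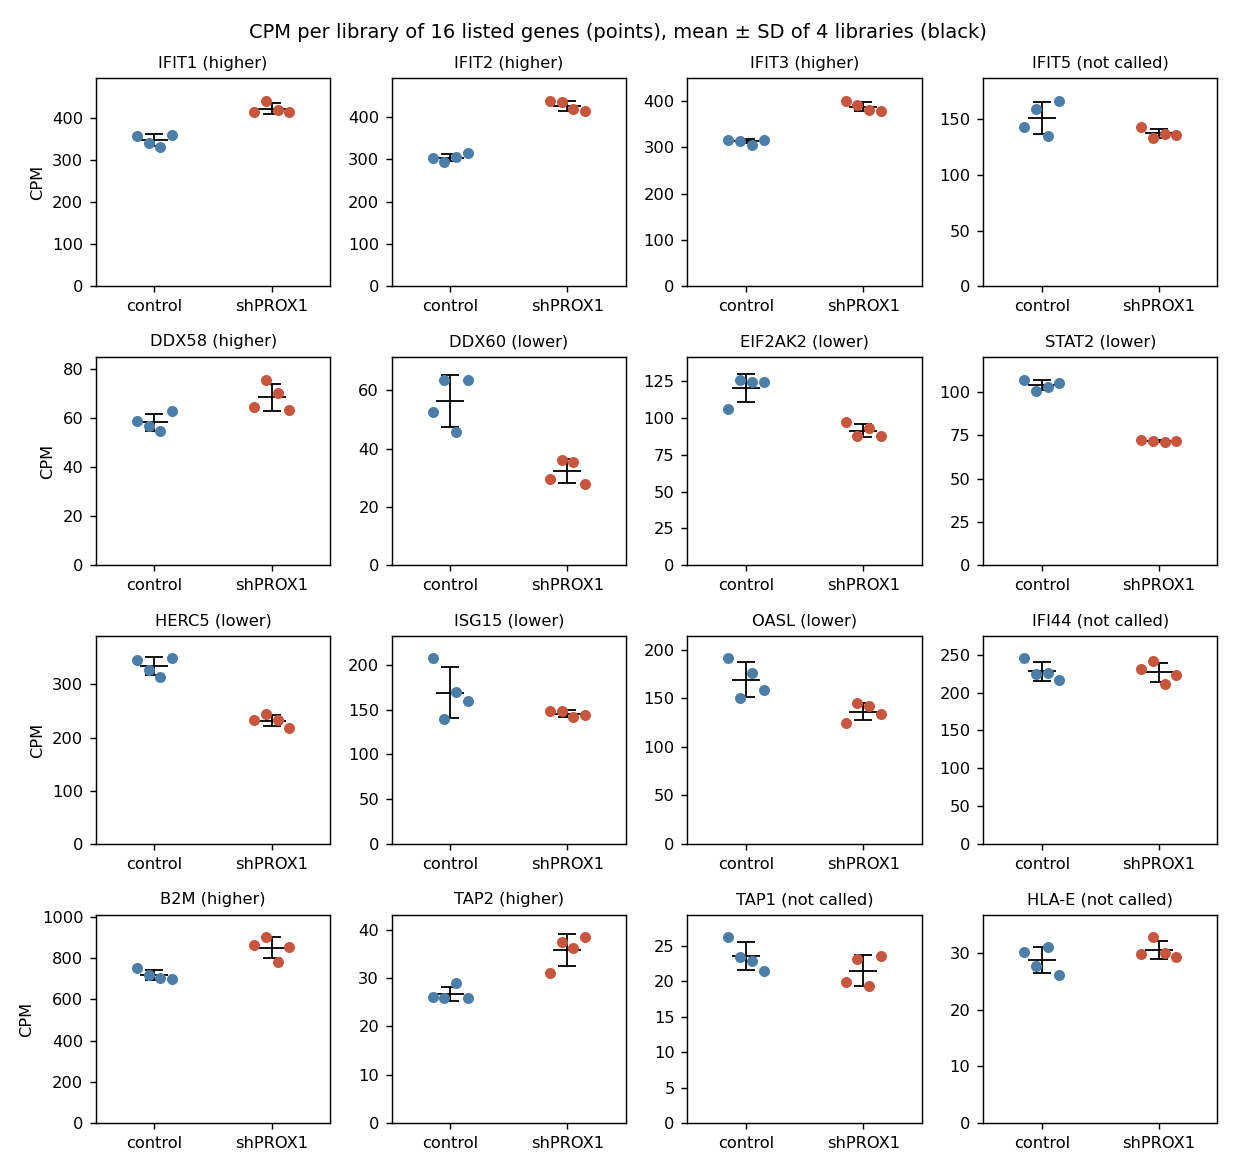
CPM of 16 of the listed genes in each library (1 point per library, blue for control and red for shPROX1), with the mean and SD of 4 libraries in black, on axes that start at 0. IFIT1, IFIT2 and IFIT3 show red points above all blue points, HERC5, STAT2 and DDX60 show them below, and IFI44 shows overlapping points.

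The OAS family makes 2′-5′ oligoadenylates that activate RNase L, apart from OASL, which lacks that activity. None of the 4 rose, 2 fell and 2 did not pass. OASL, the most abundant of them per kb, had 191, 150.4, 175 and 159 CPM in the controls, against 125, 145, 142 and 133 CPM in the shPROX1 libraries. The groups did not overlap, and the fall was 1.24-fold (log2 change -0.31 ± 0.07 SE, edgeR adjusted p = 0.00101). OAS1 stood at 15.6, 13.8, 15.7 and 17.5 CPM in the controls, against 11.3, 11.4, 14.2 and 11.6 CPM in the shPROX1 libraries. Replicate 3 of the shPROX1 group lay inside the control range, while the other 3 lay below it. The fall was 1.3-fold, a log2 change of -0.38 ± 0.14 (SE, edgeR adjusted p = 0.0347). OAS2 had 20.8, 16.3, 22.9 and 18.7 CPM in the controls, against 13.2, 16.4, 18.8 and 17.2 CPM in the shPROX1 libraries, and its log2 change of -0.26 ± 0.13 (SE, edgeR adjusted p = 0.133) did not pass. The groups overlapped. OAS3 had 42.8, 48.4, 50.4 and 45.5 CPM in the controls, against 45.2, 39, 40.04 and 40.1 CPM in the shPROX1 libraries. The groups overlapped, and the log2 change of -0.18 ± 0.08 (SE, edgeR adjusted p = 0.0767) did not pass. The OAS1 call was lost in 7 of 16 alternatives, over a range of adjusted p from 0.0192 to 0.122: in DESeq2 (0.122), with no filter on low counts (0.0916), and without control replicate 3 (0.0622), control replicate 4 (0.121) or shPROX1 replicate 1 (0.0881), 2 (0.0832) or 4 (0.0800). OAS3 passed as lower without control replicate 1 (adjusted p = 0.0421) or without shPROX1 replicate 1 (adjusted p = 0.0449), over a range of 0.0421 to 0.214.

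In the ISG15 conjugation group, HERC5 and ISG15 fell. HERC5, the main ligase that attaches ISG15 to proteins (chr4:88457117-88506163, plus strand), stood at 346, 328, 314 and 349 CPM in the controls, against 233, 244, 233 and 218 CPM in the shPROX1 libraries. All shPROX1 libraries lay far below the controls. It fell 1.44-fold, from 334 ± 16.7 CPM to 232 ± 10.6 CPM (SD, n = 4 each), a log2 change of -0.53 ± 0.05 (SE, edgeR adjusted p = 2.84e-08). ISG15 (chr1:1001138-1014541, plus strand) had 207, 139.7, 169.7 and 159.8 CPM in the controls, against 148, 149, 141 and 144 CPM in the shPROX1 libraries. Control replicate 2 lay below every shPROX1 library, and control replicate 1 was the highest of all 8. The fall was 1.16-fold, a log2 change of -0.21 ± 0.08 (SE, edgeR adjusted p = 0.0383). HERC6, a related ligase gene next to HERC5, had 36.4, 35.3, 34.5 and 35.7 CPM in the controls, against 29.8, 33.5, 33.3 and 28.8 CPM in the shPROX1 libraries. Its groups did not overlap, yet the log2 change of -0.18 ± 0.09 (SE, edgeR adjusted p = 0.110) did not pass. USP18, which removes ISG15 and dampens interferon receptor signalling, had 19.6, 10.6, 17.8 and 15.2 CPM in the controls, against 19.6, 19.4, 20.7 and 16.5 CPM in the shPROX1 libraries, with overlapping groups and a log2 change of 0.26 ± 0.15 (SE, edgeR adjusted p = 0.182). The ISG15 call was lost in 8 of 16 alternatives, over a range of adjusted p from 0.00331 to 0.198: in DESeq2 (0.198), in limma voom (0.0549), and without control replicate 1 (0.188, log2 change -0.10), control replicate 3 (0.0748) or shPROX1 replicate 1 (0.0680), 2 (0.0639), 3 (0.0839) or 4 (0.0829). As IFIT2 rose and HERC5 fell from similar control levels per kb, the ratio of IFIT2 to HERC5 counts, chosen after the values were seen, was 0.909 ± 0.0434 in the controls and 1.83 ± 0.0574 in the shPROX1 libraries (SD, n = 4 each).

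Membrane restriction factors had 2 genes that fell, none that rose and 2 that did not pass. BST2, or tetherin, which holds budding virions at the cell surface (chr19:17402939-17405648, minus strand), had 9.69, 7.9, 9.64 and 7.11 CPM in the controls, against 2.13, 5.46, 5.37 and 6.37 CPM in the shPROX1 libraries. All shPROX1 libraries lay below all controls, and shPROX1 replicate 1 was far lower than the other 3. The fall was 1.77-fold, a log2 change of -0.82 ± 0.24 (SE, edgeR adjusted p = 0.00881), and without that library it was -0.57 (adjusted p = 0.0418, range 0.00221 to 0.0418). IFITM1, a membrane protein that blocks viral fusion, stood at 6.62, 6.67, 6.51 and 9.34 CPM in the controls, against 5.44, 3.48, 3.49 and 5.43 CPM in the shPROX1 libraries, or 28, 27, 27 and 46 against 23, 14, 13 and 23 counts. The groups did not overlap, and control replicate 4 was well above the other controls. The fall was 1.63-fold, a log2 change of -0.71 ± 0.22 (SE, edgeR adjusted p = 0.0152). IFITM2 had 13.9, 15.8, 22.4 and 18.1 CPM in the controls, against 15.8, 15.9, 17.7 and 10.2 CPM in the shPROX1 libraries, and its log2 change was -0.24 ± 0.16 (SE, edgeR adjusted p = 0.261). The groups overlapped. IFITM3, which acts in late endosomes, had 33.8, 45.7, 44.4 and 33.9 CPM in the controls, against 37.4, 36, 41.4 and 31.4 CPM in the shPROX1 libraries, with overlap and a log2 change of -0.11 ± 0.11 (SE, edgeR adjusted p = 0.477). The IFITM1 call was lost in DESeq2 (adjusted p = 0.0503), without control replicate 4 (adjusted p = 0.0831) and without shPROX1 replicate 2 (adjusted p = 0.0583), over a range of 0.0106 to 0.0831. The IFITM genes are close copies, and IFITM1 shares 32.5% of its exon bases with IFITM2 on the same strand, so the split of reads among them is uncertain.

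Of 11 other effectors 9 were tested, 2 rose and 1 fell. MX2, a dynamin-like GTPase that restricts lentiviruses, was low, with 10, 15, 16 and 22 counts in the controls and 23, 20, 28 and 28 in the shPROX1 libraries, or 2.36, 3.7, 3.86 and 4.47 CPM in the controls, against 5.44, 4.97, 7.52 and 6.61 CPM in the shPROX1 libraries. The groups did not overlap. It rose 1.68-fold, a log2 change of 0.75 ± 0.23 (SE, edgeR adjusted p = 0.0159). Its neighbour MX1, which restricts influenza virus, had 2.36, 4.69, 3.13 and 3.65 CPM in the controls, against 3.07, 4.72, 2.42 and 2.6 CPM in the shPROX1 libraries. These overlapped, and the log2 change of -0.11 ± 0.29 (SE, edgeR adjusted p = 0.806) was small against its error. IFI44L stood at 17.7, 21.2, 18.3 and 20.1 CPM in the controls, against 25.8, 29.6, 23.1 and 21.5 CPM in the shPROX1 libraries, with no overlap. It rose 1.29-fold, a log2 change of 0.37 ± 0.12 (SE, edgeR adjusted p = 0.0176). IFI44, which lies next to IFI44L and was far more abundant per kb, had 245, 224, 226 and 216 CPM in the controls, against 231, 241, 211 and 223 CPM in the shPROX1 libraries. The groups overlapped, with a log2 change of -0.0069 ± 0.05 (SE, edgeR adjusted p = 0.937). IFI6, an interferon-induced membrane protein, had 47, 38, 39.3 and 41.6 CPM in the controls, against 34.8, 31.3, 36.3 and 35.6 CPM in the shPROX1 libraries, without overlap. It fell 1.2-fold, a log2 change of -0.27 ± 0.09 (SE, edgeR adjusted p = 0.0199).

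The 4 remaining tested effectors did not pass. SAMD9 and SAMD9L, neighbouring genes for proteins that restrict poxviruses, had overlapping groups. SAMD9 had 104, 122, 105 and 111 CPM in the controls, against 128, 125, 128 and 112 CPM in the shPROX1 libraries, with a log2 change of 0.16 ± 0.06 (SE, edgeR adjusted p = 0.0564). SAMD9L had 29.5, 37.8, 38.1 and 36.9 CPM in the controls, against 31.7, 45, 37.1 and 39 CPM in the shPROX1 libraries, with a log2 change of 0.10 ± 0.10 (SE, edgeR adjusted p = 0.497). The lowest SAMD9L value was that of control replicate 1. ISG20, an RNA exonuclease, had 13.2, 11.1, 10.8 and 9.95 CPM in the controls, against 14, 10.9, 11 and 12.3 CPM in the shPROX1 libraries, with a log2 change of 0.10 ± 0.15 (SE, edgeR adjusted p = 0.637). IFI35 had 18.7, 15.6, 16.4 and 16.6 CPM in the controls, against 13, 12.2, 12.9 and 16.3 CPM in the shPROX1 libraries, with a log2 change of -0.30 ± 0.13 (SE, edgeR adjusted p = 0.0774). Both overlapped between groups. The MX2 call was lost in DESeq2 (adjusted p = 0.0506), without control replicate 1 (adjusted p = 0.0572) and without shPROX1 replicate 3 (adjusted p = 0.0550), over a range of 0.0123 to 0.0572. The IFI6 call was lost in DESeq2 (adjusted p = 0.0707), without control replicate 1 (adjusted p = 0.0812) and without shPROX1 replicate 2 (adjusted p = 0.0778), over a range of 0.0145 to 0.0812. The IFI44L call was lost without shPROX1 replicate 2 (adjusted p = 0.0883, range 0.00936 to 0.0883). SAMD9 passed as higher in 5 alternatives (range 0.0165 to 0.163), among them those without control replicate 2 (adjusted p = 0.0165) and shPROX1 replicate 4 (adjusted p = 0.0201), and IFI35 passed as lower without shPROX1 replicate 4 (adjusted p = 0.0308, range 0.0308 to 0.204).

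In the antigen presentation group TAP2 and B2M rose and the other 4 genes did not pass. B2M, the light chain of every class I molecule (chr15:44711477-44718877, plus strand), had 754, 719, 702 and 698 CPM in the controls, against 865, 902, 779.5 and 856 CPM in the shPROX1 libraries. All shPROX1 libraries lay above all controls. It rose 1.18-fold, from 718 ± 25.6 CPM to 851 ± 51.4 CPM (SD, n = 4 each), a log2 change of 0.24 ± 0.04 (SE, edgeR adjusted p = 1.55e-04). TAP2, a subunit of the peptide transporter (chr6:32821833-32838780, minus strand), had 26, 25.9, 28.9 and 26 CPM in the controls, against 31, 37.5, 36.3 and 38.5 CPM in the shPROX1 libraries, again without overlap. It rose 1.34-fold, a log2 change of 0.42 ± 0.09 (SE, edgeR adjusted p = 0.00120). TAP1, the other subunit, had 26.2, 23.5, 22.9 and 21.5 CPM in the controls, against 19.9, 23.1, 19.3 and 23.6 CPM in the shPROX1 libraries. The groups overlapped, and its log2 change of -0.13 ± 0.11 (SE, edgeR adjusted p = 0.409) did not pass. Within each library, the ratio of TAP2 to TAP1 counts, chosen after the values were seen, was 1.14 ± 0.12 in the controls and 1.67 ± 0.139 in the shPROX1 libraries (SD, n = 4 each). The class I heavy chain HLA-B had 14.9, 10.4, 14 and 11.2 CPM in the controls, against 12.3, 9.94, 14 and 12.3 CPM in the shPROX1 libraries, with a log2 change of -0.0556 ± 0.15 (SE, edgeR adjusted p = 0.815). HLA-C, also a classical heavy chain, had 16.5, 15.8, 19 and 16.8 CPM in the controls, against 15.6, 15.6, 16.7 and 17.5 CPM in the shPROX1 libraries, with a log2 change of -0.0614 ± 0.12 (SE, edgeR adjusted p = 0.733). HLA-E, the ligand of NKG2A on natural killer cells, had 30.3, 27.7, 31.1 and 26.2 CPM in the controls, against 29.8, 32.8, 30.1 and 29.3 CPM in the shPROX1 libraries, with a log2 change of 0.0851 ± 0.09 (SE, edgeR adjusted p = 0.519). All 3 overlapped between groups. Class I heavy chain genes are polymorphic and alike in sequence, so their read assignment is uncertain. TAP2 shares 32.3% of its exon bases with AL669918.1 on the same strand, which had 0 counts in all 8 libraries. How reads over the shared bases were counted is not given, so the level of TAP2, also in its ratio to TAP1, is uncertain.

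The genes around these also moved in both directions. They were 104 genes of interferon signalling, RNA sensing, further interferon-stimulated genes and presentation. Of these, 70 were tested, 14 rose and 24 fell (54.3% called, beside the 35.2% of all tested genes). Their lists were also chosen with earlier results of these data known, so that difference is not a test of them. Among interferon receptors and kinases, 1 rose and 2 fell of 8 tested. IFNGR1, a chain of the interferon gamma receptor, fell from 24.1 ± 1.9 CPM to 17.1 ± 1.01 CPM (SD, n = 4 each), a log2 change of -0.49 ± 0.11 (SE, edgeR adjusted p = 0.00134). IFNAR1, a chain of the type I receptor, fell from 65.7 ± 6.55 CPM to 52.2 ± 3.4 CPM (SD, n = 4 each), a log2 change of -0.33 ± 0.08 (SE, edgeR adjusted p = 0.00175). The kinase JAK1 rose from 171 ± 5.23 CPM to 192 ± 4.94 CPM (SD, n = 4 each), a log2 change of 0.17 ± 0.05 (SE, edgeR adjusted p = 0.00979). TYK2, at 99.3 ± 2.63 CPM in the controls, had a log2 change of -0.0432 (edgeR adjusted p = 0.593). Among signal factors and brakes, 1 rose and 4 fell of 8 tested. IRF2, a factor that competes with IRF1, fell from 19 ± 1.13 CPM to 12.3 ± 1.5 CPM (SD, n = 4 each), a log2 change of -0.63 ± 0.13 (SE, edgeR adjusted p = 4.97e-04). PIAS1, an inhibitor of STAT signalling, and STAT3 fell by log2 changes of -0.41 ± 0.11 (SE, edgeR adjusted p = 0.00703) and -0.24 ± 0.06 (SE, edgeR adjusted p = 0.00245). SOCS3, a feedback inhibitor of JAK kinases, rose by 0.31 ± 0.09 (SE, edgeR adjusted p = 0.00972) on the log2 scale, a call lost without shPROX1 replicate 1 (adjusted p = 0.0559, range 0.00378 to 0.0559 over 16 alternatives). The phosphatase gene PTPN2 had a log2 change of -0.0665 (edgeR adjusted p = 0.530).

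Among nucleic acid sensing adaptors, 2 rose and 2 fell of 11 tested. TLR3, the endosomal receptor of double-stranded RNA, fell from 6.82 ± 0.559 CPM to 2.82 ± 0.604 CPM (SD, n = 4 each), a log2 change of -1.25 ± 0.23 (SE, edgeR adjusted p = 1.32e-04). DHX58, which encodes LGP2, a regulator of RIG-I and MDA5, fell from 19.1 ± 1.01 CPM to 12.6 ± 0.889 CPM (SD, n = 4 each), a log2 change of -0.60 ± 0.12 (SE, edgeR adjusted p = 5.05e-04). ZNFX1, a helicase that senses double-stranded RNA, and TRIM25, a ligase of RIG-I signalling, rose by 0.44 ± 0.05 (SE, edgeR adjusted p = 3.61e-07) and 0.30 ± 0.08 (SE, edgeR adjusted p = 0.00379) on the log2 scale. MAVS, the mitochondrial adaptor of both helicase sensors, had a log2 change of -0.0334 (edgeR adjusted p = 0.679). Of the further interferon-stimulated genes, 7 rose and 9 fell of 28 tested. The guanylate-binding GTPases GBP3 and GBP2 rose from 4.74 ± 0.477 CPM to 10.6 ± 1.02 CPM (SD, n = 4 each) and from 15.1 ± 2.91 CPM to 28.2 ± 1.24 CPM (SD, n = 4 each), with log2 changes of 1.15 ± 0.18 (SE, edgeR adjusted p = 2.16e-05) and 0.90 ± 0.12 (SE, edgeR adjusted p = 4.44e-06). CCL5, a chemokine, and SHFL, an inhibitor of ribosomal frameshifting, fell by log2 changes of -0.89 ± 0.17 (SE, edgeR adjusted p = 3.35e-04) and -0.75 ± 0.15 (SE, edgeR adjusted p = 4.29e-04). ADAR, the RNA-editing enzyme, had a log2 change of -0.00795 (edgeR adjusted p = 0.919).

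Of the further class I presentation genes, 3 rose and 7 fell of 14 tested. PSMB9 and PSMB8, subunits of the immunoproteasome that cuts peptides for class I, fell from 9.73 ± 2.03 CPM to 5.3 ± 1.5 CPM (SD, n = 4 each) and from 38.7 ± 5.1 CPM to 30.2 ± 0.15 CPM (SD, n = 4 each), with log2 changes of -0.88 ± 0.21 (SE, edgeR adjusted p = 0.00241) and -0.36 ± 0.10 (SE, edgeR adjusted p = 0.00498). PSME1, a subunit of the proteasome activator PA28, fell from 108 ± 5.17 CPM to 63.9 ± 5.82 CPM (SD, n = 4 each), a log2 change of -0.76 ± 0.07 (SE, edgeR adjusted p = 5.71e-09). TAPBP, or tapasin, which bridges class I molecules to the TAP transporter, fell from 30.9 ± 1.83 CPM to 18.6 ± 3.22 CPM (SD, n = 4 each), a log2 change of -0.73 ± 0.12 (SE, edgeR adjusted p = 3.08e-05). Of 9 class II presentation genes 1 could be tested, HLA-DPB1, with a log2 change of 0.27 (edgeR adjusted p = 0.424), and 4 were at 0 in all 8 libraries.

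**Figure D4:**
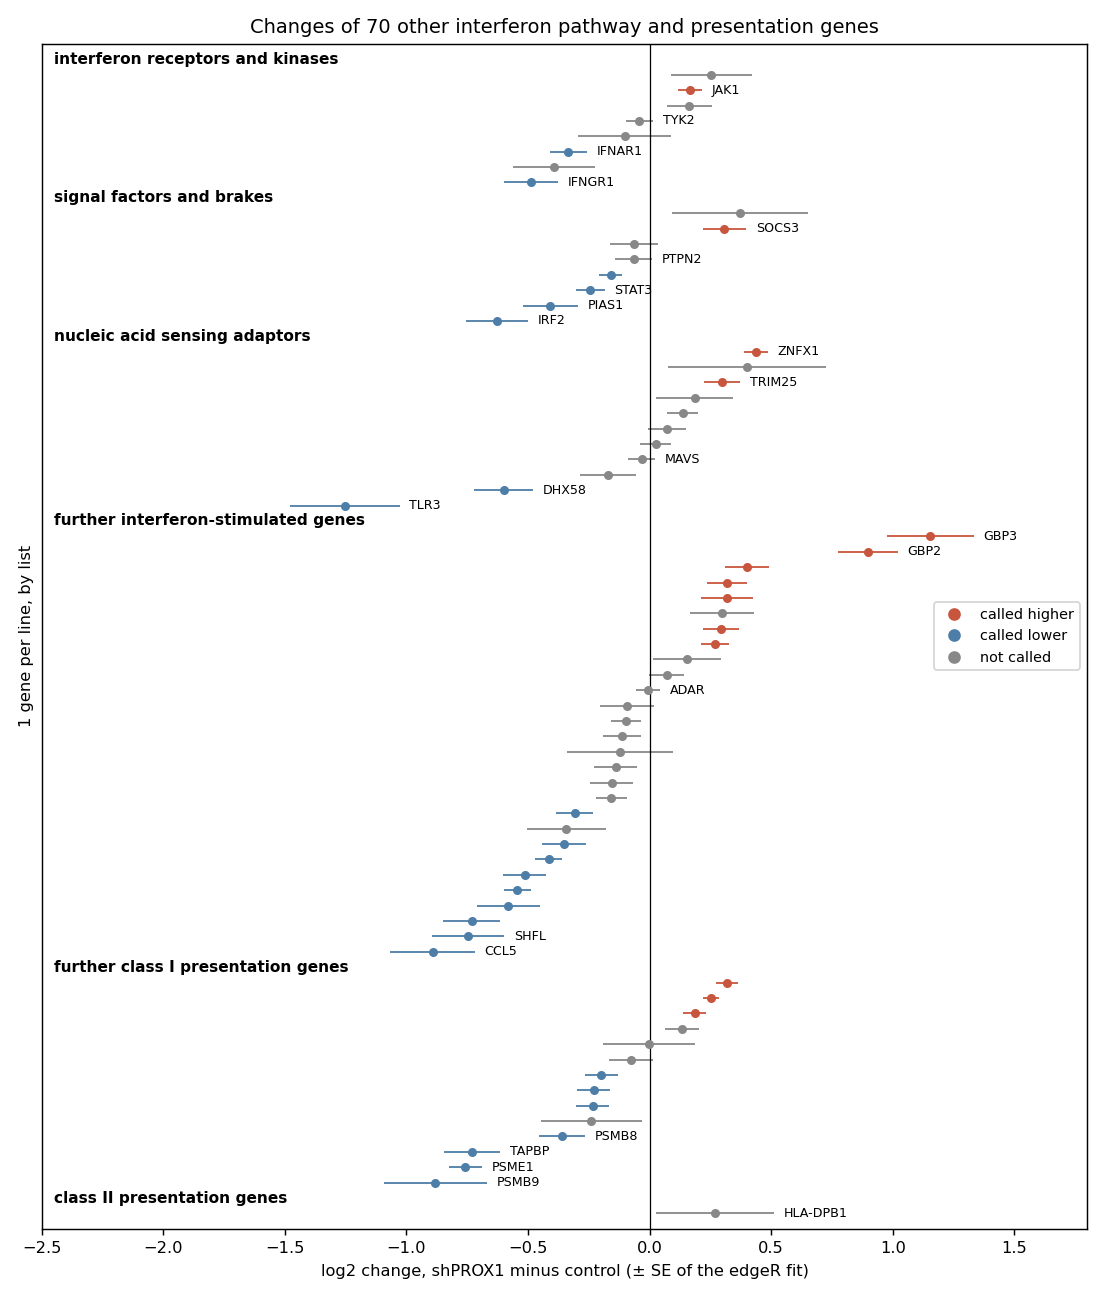
Log2 change, shPROX1 minus control, with the standard error of the edgeR fit, for the 70 tested genes of the interferon pathway and presentation lists, 1 gene per line, with the genes described in the text named. TLR3 and the class I genes PSMB9, PSME1 and TAPBP lie furthest left in their groups, and GBP3 and GBP2 furthest right in theirs.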

How the data were processed

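Total RNA of 8 RD libraries was sequenced from strand-preserving libraries, per the labels' protocols. The deposited files give whole-number counts of reads per gene. Per the submitters' processing notes, the tools were FastQC, HISAT2, HTSeq and DESeq2 with build GRCh38; versions, roles and the strand setting of the counting are not given in the sources used here. The files' gene IDs were matched to symbols of GENCODE 29 (58039 of 58302 matched), and no entry lacked a gene.

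The counts were fitted with edgeR 4.0.16 (R 4.3.3): filterByExpr by group, TMM factors, glmQLFit and glmQLFTest with group as the only term, and Benjamini-Hochberg adjustment over all 12392 tested genes, with a threshold of 0.05. SE is that of the log2 change. DESeq2 1.42.0, limma 3.58.1 voom, other scalings and filters, a replicate block, another threshold, glmTreat against 1.5-fold and leaving out each library were run as alternatives. The 16 alternatives counted per gene are those apart from the threshold and glmTreat. The fit was also run on simulated counts in which 200 of 12392 genes were changed. It recovered 68.8% of log2 changes of 0.5 in size, 90% of those of 1 and 100% of those of 2. In the data 35.2% of tested genes were called, a far larger share than was changed in the simulation. The adjustment depends on that share, so these rates need not hold for the reported fit. Smaller changes were not simulated, while the median size of the listed genes' log2 changes was 0.26. CPM uses TMM-scaled library sizes, and libraries are listed in replicate order. Exon length and overlaps come from GENCODE 29, and file coordinates are printed 1-based.

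Each listed gene with at least 1 CPM on average was given in every library; of the pathway lists, up to 4 called genes with the largest changes and the most abundant uncalled gene were named, and 1 gene that the rule names is not reported here. The listed genes and the lists were chosen with earlier results of these data known. Where p-values are given they measure the spread between these libraries. Compared in pairs, shPROX1 libraries had a chi-squared per degree of freedom of 1.19 to 2.16, and control libraries 2.39 to 6.34. A value of 1 is the spread of counting alone. The shPROX1 pairs without replicate 3, at 1.19 to 1.41, varied little beyond it, while those with replicate 3 had 1.84 to 2.16. The p-values do not cover variation between hairpins or between cell lines.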

Additional observations from a re-analysis of the deposited data

Results flagged for a closer look

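In 5 of 80 groups of 4 libraries examined, 1 library stood far from the other 3 by Dixon's criterion, and chance flags about 1 group in 20. EIF2AK2 in control replicate 1 was 106 CPM, against 124 to 126 CPM in the other 3. OAS1 in shPROX1 replicate 3 was 14.2 CPM, against 11.3 to 11.6 CPM in the other 3. IFITM1 in control replicate 4 was 9.34 CPM, against 6.51 to 6.67 CPM in the other 3. SAMD9L in control replicate 1 was 29.5 CPM, against 36.9 to 38.1 CPM in the other 3. TAP2 in control replicate 3 was 28.9 CPM, against 25.9 to 26 CPM in the other 3. Without the library concerned, EIF2AK2 and TAP2 kept their calls (edgeR adjusted p = 5.36e-07 and 0.00152), OAS1 kept its call (adjusted p = 0.0192), SAMD9L stayed short of the threshold (adjusted p = 0.896) and IFITM1 lost its call (adjusted p = 0.0831).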

How the results depend on the processing

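The number of listed genes called was 19. It was 13 in DESeq2, 18 in limma voom, 20 with RLE size factors, 18 with no filter on low counts, 16 of 33 once genes with 10% or more of their exon bases inside some other gene were left out, and 13 to 20 with 1 library left out. The count over all genes moved too: from 4364 to 3483 in DESeq2, 4327 in voom, 4365 with RLE, 4158 of more genes with no filter and 3788 to 4292 with 1 library left out. The share called, listed against all genes, was 48.7% against 35.2% as reported, 33.3% against 28.1% in DESeq2 and 33.3% against 30.4% without shPROX1 replicate 2. At a threshold of 0.01, listed genes called numbered 11, beside 2986 of all genes. Tested against 1.5-fold (edgeR glmTreat) they numbered 0, with 1 gene under an unadjusted p of 0.05, beside 2 pathway genes and 369 of all genes. Over 16 alternatives, 5 of the 9 genes that rose, 6 of the 10 that fell and 11 of the 20 others kept both direction and side of the threshold. Among the genes named, those whose sign reversed under some alternative had not passed the test. Leaving out 1 library gave log2 changes of -0.13 to 0.0332 for HLA-B, -0.0376 to 0.0301 for IFI44, -0.35 to 0.059 for MX1, -0.17 to 0.11 for NLRC5 and -0.0392 to 0.00811 for ADAR. ADAR was at 0.000341 and IFI44 at 0.00129 with a minimum of 1 CPM in 4 libraries and 0.00132 and 0.00282 with no filter, and NLRC5 at 0.00325 in limma voom; the cause was not tested. The replicate block left 19 listed genes, 38 pathway genes and 4187 of all genes called. To look for pairing, the deviations of log CPM from the group mean of each gene were correlated between control and shPROX1 libraries. The correlations were -0.0508 to 0.0501 for same-numbered libraries and -0.179 to 0.129 for the others, so no pairing by number was seen. Depth limits the low genes: IRF9, XAF1 and IFI27 could not be tested.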

Other observations

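Among the 39 tested genes, control replicate 1, which lay apart on the second principal component, held the highest of the 4 control values for 15 (38.5%, against 28.7% of all tested genes) and the lowest for 11 (28.2%, against 28.6% of all tested genes). Control replicate 2 held the highest for 8 (20.5%, against 26.2% of all tested genes) and the lowest for 12 (30.8%, against 24.4% of all tested genes). In the shPROX1 group, replicate 2 held the highest value for 14 (35.9%, against 24.1% of all tested genes) and the lowest for 11 (28.2%, against 25% of all tested genes), and replicate 4 the highest for 6 (15.4%, against 24% of all tested genes) and the lowest for 14 (35.9%, against 23.9% of all tested genes). In the other 4 libraries, the count of highest or lowest values was between 6 and 10 of the 39, or 15.4% to 25.6%, against 21.2% to 28.2% of all tested genes. Of these, shPROX1 replicate 3 held the highest for 9 (23.1%, against 28% of all tested genes) and the lowest for 6 (15.4%, against 28.2% of all tested genes).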
